A study of Macaca mulatta with 20 samples.

Results

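The chemokines, interleukins, tumour necrosis factor (TNF) superfamily ligands and their receptors were examined in the corpus luteum of the rhesus macaque during simulated early pregnancy. Genes were taken by name: every gene symbol of the array annotation that starts with CCL, CCR, CXCL, CXCR or IL followed by a number, or with TNFSF or TNFRSF. This gave 136 of the 14132 gene symbols, measured by 221 probe sets (the sets of short probes that together report 1 transcript). Where a gene had several probe sets, the 1 with the highest mean log2 level over the 20 arrays stood for it. By role these were 21 CC chemokines, 9 CXC chemokines, 11 chemokine receptors, 38 interleukin-type ligands, 33 interleukin-type receptors, 9 TNF superfamily ligands, 14 TNF receptors and 1 enzyme, IL4I1. TNF itself and other relatives whose names follow another pattern are counted separately near the end.

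Chemokines are small secreted proteins that draw leukocytes along a gradient through receptors coupled to G proteins. Interleukins act between immune and tissue cells through paired receptor chains, and some family members are soluble or signal-less receptors that hold a ligand back. TNF superfamily ligands form trimers that cluster receptors linked to survival, inflammation or cell death. The corpus luteum, the progesterone-secreting gland left by the ovulated follicle, holds macrophages and other leukocytes beside its steroid-making and vascular cells, and chorionic gonadotropin prolongs its life in early pregnancy through the LH receptor.

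Messenger RNA was measured in 20 corpora lutea from female rhesus macaques, in 5 groups of 4 with 1 array each. The baseline group was untreated and was collected on luteal day 10. The other 4 groups received recombinant human chorionic gonadotropin (hCG) from luteal day 9, in 2 intramuscular injections per day at doses rising in 9 steps from 15 to 2880 IU, and were collected on luteal day 10, 12, 15 or 18, after 1, 3, 6 or 9 days of hCG. Untreated corpora lutea of days 12, 15 and 18 were not analysed here, so luteal age, days of hCG and dose rose together and cannot be told apart in the later groups; only hCG day 10 shares its luteal day with the baseline. The labels give no animal for a sample and no age or weight, so the p values measure the spread between these samples, which may be partly technical.

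All arrays had been scaled to 1 target, and their median signals ran from 31.6 to 46.4 intensity units. Correlations between arrays of a group were 0.96 to 0.979. Of 9 luteal markers 5 were measured, STAR among them, with mean signals of 6368 to 15918, and 0 were weak. HSD3B2, a steroid-making enzyme and 1 of the 5, fell from 8320.3 untreated and 10323 on hCG day 10 to 4347 on day 15 and 2339.9 on day 18 (log2 -1.83 ± 0.21, adjusted p = 4.4e-05 on day 18 against untreated), and its part in the late results below was not tested. The other measured luteal markers did not fall from untreated to day 18. Mean signals went from 14873 to 17387 for STAR and from 6431 to 9029 for INHA. For CYP19A1 they went from 6073 to 10324, and for FDX1 from 13323 to 13456. 3 arrays (replicate 2 of the untreated and day 15 groups and replicate 1 of day 12) lay apart on a principal component in an earlier look at these data. Calls that ended without them are stated at each gene. The number of arrays limits the precision. Differences below are of group means of log2(signal + 16), given with ± standard errors (± SD after a mean signal, n = 4), from 1 limma model of all 20 arrays, and a gene passed at an adjusted p under 0.05 over all 52707 probe sets.

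Of the 136 genes, 66 were weak in all 5 groups, which here means a group mean signal under 50, and 49 reached 50 in every group. The median over all tested probe sets, 31.6 to 46.4 per array, also lay under this limit. The share of weak genes among all symbols is not given here, so weak signal is not shown to be particular to this family. For scale, 18 of 21 genes restricted to other tissues (lens, liver, lung, sperm and the like) were weak by the same measure. Their median signal was 12.6 and their 90th percentile 41.3. The highest, TNNI3, stood at 424. Its group mean fell from 545.99 untreated to 122.56 on hCG day 18, and whether it reports a transcript present here was not tested. CRYGD and MYL4 reached 50 in some groups, with group means of up to 64.8 and 51.7. A signal somewhat over 50 therefore does not by itself show expression. Weak genes made up 26 of 38 interleukin-type ligands, 7 of 11 chemokine receptors, 10 of 21 CC chemokines and 4 of 9 TNF ligands. Their share was lower among interleukin-type receptors (13 of 33), TNF receptors (3 of 14) and CXC chemokines (2 of 9). Signals of different probe sets are not amounts that can be set against each other, because probes differ in how strongly they bind.

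**Figure D1:**
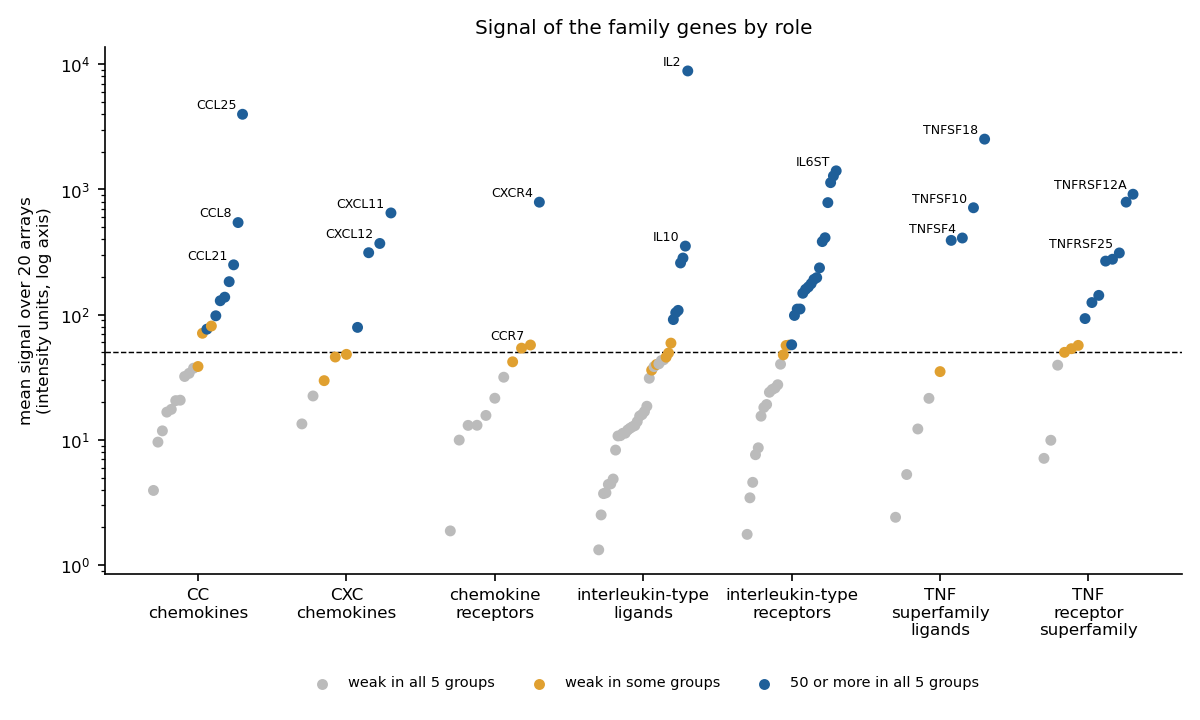
Mean signal over the 20 arrays of each family gene except the enzyme, 1 point per gene, grouped by role on a log axis, with a dashed line at 50. Grey points are genes with a group mean under 50 in all 5 groups, orange points in some groups, and blue points reached 50 in every group. Heights of different genes are not comparable as amounts. Most interleukin-type ligands lie under the line, and CXCR4 is the single chemokine receptor that reached 50 in every group.

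Over the 5 groups, 15 of the 136 genes differed (limma's F test). That was 11% of them, beside 7.01% of all symbols and 4.52% of all probe sets. Of the 15, 11 were among the 70 genes that reached 50 somewhere and 4 among the 66 weak ones. Another 8 genes passed in 1 contrast each without passing the F test, which makes 23 genes in all. Without the 3 set-apart arrays 7 genes passed, and 9 without untreated replicate 4 or hCG day 18 replicate 3.

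On hCG day 10, 0 family genes were higher than untreated and 2 were lower (background 1.12% higher and 0.425% lower among all symbols). On day 12 these counts were 0 and 1 (0.262% and 0.191%), on day 15 they were 1 and 2 (0.969% and 0.998%), and on day 18 they were 2 and 7 (2.78% and 3.31%). The family thus stood at 1.47% higher and 5.15% lower on day 18. Its median log2 difference from untreated was -0.06, -0.12, -0.10 and -0.01 on days 10, 12, 15 and 18, beside -0.01, -0.01, -0.03 and -0.03 over all symbols. These medians depend on the scaling: with each array centred on its own median, differences from untreated shifted by 0.115, 0.144, 0.113 and 0.049, and the family medians became 0.051, 0.019, 0.018 and 0.040. Day 10 then had 1 gene higher (IL1RL1) and 1 lower, and day 15 had 2 higher and 2 lower. Day 12 had 0 and 0, or 1 and 1 with quantile normalisation. Day 18 had 2 higher and 4 lower, or 3 and 4 with quantile normalisation, so 3 of the 7 lower calls, those of IL17F, IL17RD and IL1RL2, rest on the scaling. Without untreated replicate 4 or hCG day 18 replicate 1 the day 18 calls numbered 4 in place of 9, and 5 without untreated replicate 2 or hCG day 18 replicate 2 or 4. Day 15 had 5 calls without hCG day 15 replicate 1.

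The contrast that held the most calls set hCG day 18 against hCG day 10, with 10 genes higher (7.35%, background 2.87%) and 6 lower (4.41%, background 5.09%). With centred arrays 5 genes were higher and 6 lower, and with quantile normalisation 8 and 6. The 6 lower genes were the same under each scaling. The 16 calls became 7 without hCG day 18 replicate 1, 10 without replicate 2 or 3 of hCG day 10, and 9 in a fit limited to these 8 arrays. These contrasts share arrays, so a gene counted in several of them is not seen several times independently.

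**Figure D2:**
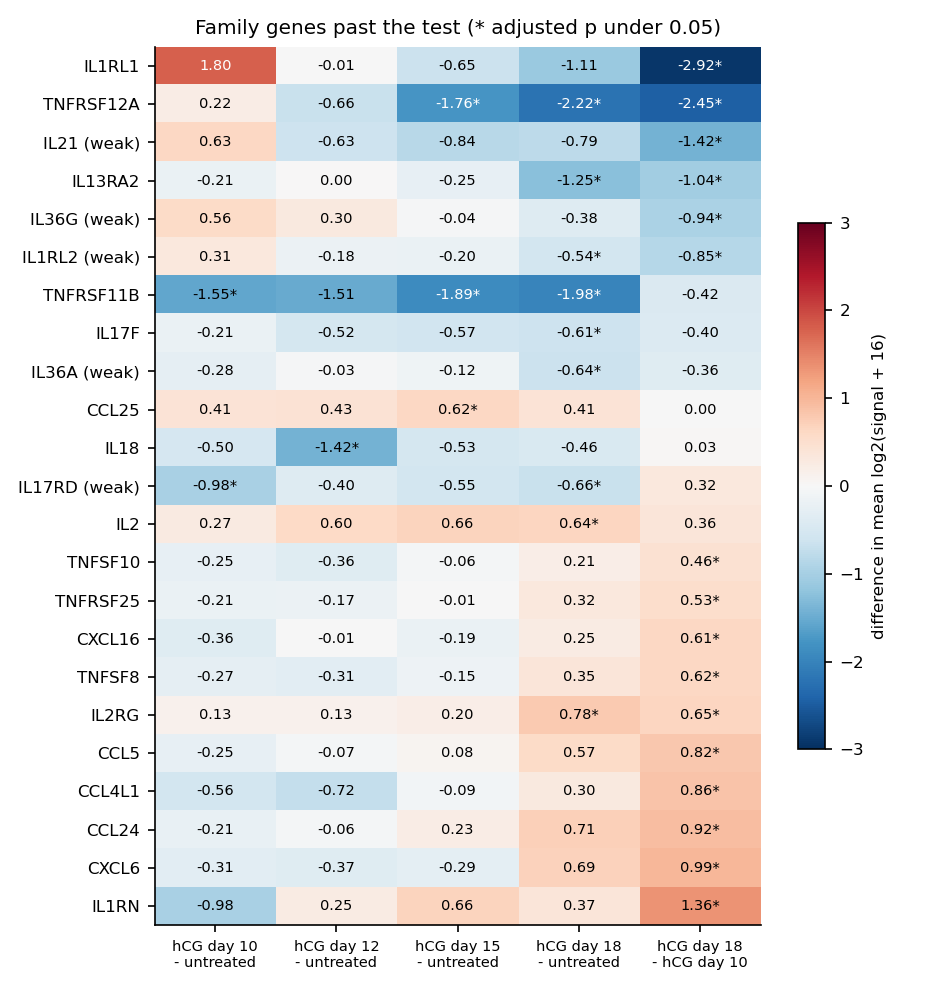
Differences in mean log2(signal + 16) of the 23 family genes that passed in the F test or a contrast, 1 row per gene and 1 column per contrast (4 arrays against 4), with an asterisk at an adjusted p under 0.05 and the weak genes marked. Rows are ordered by the right-hand column: IL1RL1 and TNFRSF12A lie lowest at -2.92 and -2.45, and IL1RN highest at 1.36.

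TNFRSF12A, the receptor of the cytokine TWEAK (also called Fn14), fell late under hCG and had the smallest p of the family. Its signals were 1492, 1543, 1423 and 979.5 in the untreated group (probe set MmugDNA.13846.1.S1_at), 2363, 944, 1447 and 1863 on hCG day 10 and 1097, 1188, 514 and 742 on day 12. On day 15 they were 282, 442, 456 and 383, and on day 18 324, 209, 462 and 177. All 8 arrays of days 15 and 18 lay below every untreated and hCG day 10 array, while days 10 and 12 overlapped the untreated group. TNFRSF12A fell 3.38-fold by day 15 (log2 -1.76 ± 0.31, adjusted p = 0.0066) and 4.67-fold by day 18 (-2.22 ± 0.31, adjusted p = 0.00032). Between hCG day 10 and hCG day 18 it fell 5.46-fold (-2.45 ± 0.31, adjusted p = 8.3e-05). Every alternative run kept these 3 calls, with an adjusted p of 0.0469 or less.

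TNFRSF11B encodes osteoprotegerin, a secreted decoy receptor that binds the ligands RANKL (TNFSF11) and TRAIL (TNFSF10). Untreated signals were 105, 145, 193 and 83.0, and after 1 day of hCG 62.1, 19.9, 17.9 and 41.0. They were 11.6, 36.8, 35.5 and 64.6 on day 12, 20.3, 59.5, 9.35 and 14.7 on day 15 and 19.3, 24.5, 13.0 and 24.6 on day 18. All 16 hCG arrays lay below the lowest untreated array. By its group means TNFRSF11B was weak in some groups. The gene fell 3.93-fold by day 18 (-1.98 ± 0.35, adjusted p = 0.0027), a call that every alternative kept, and 3.70-fold by day 15 (-1.89 ± 0.35, adjusted p = 0.009), which ended with a fit limited to these 8 arrays (adjusted p = 0.0567). The fall on hCG day 10 (-1.55 ± 0.35, adjusted p = 0.04) was less firm: it ended without any 1 of untreated replicate 1, 2 or 3 or hCG day 10 replicate 2, 3 or 4 (adjusted p = 0.0697 to 0.159) and with quantile normalisation, median-centring, a pseudocount of 1, a fit limited to these 8 arrays or the replicate block (adjusted p = 0.0537 to 0.142). Day 12 did not pass (-1.51 ± 0.35, adjusted p = 0.08). A second TNFRSF11B probe set gave 65.9 ± 8.1 untreated and 29.5 ± 18.8 and 22.0 ± 2.87 on hCG days 10 and 18, and was lower on days 10, 15 and 18 (day 18: log2 -1.10, adjusted p = 0.0045).

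Of the osteoprotegerin ligands, TNFSF11 was weak in every group, with group means of 11.5 to 39.3. TNFSF10, the death-receptor ligand TRAIL, had signals of 738, 723, 749.5 and 803 untreated, 579.8, 702, 578 and 673 on hCG day 10, 519, 657, 526 and 645 on day 12, 589, 780.4, 761 and 777 on day 15 and 938, 865, 822 and 865 on day 18. The day 18 arrays lay above all 16 others. TNFSF10 was 1.37-fold higher on day 18 than on hCG day 10 (0.46 ± 0.12, adjusted p = 0.029), but not against untreated (0.21 ± 0.12, adjusted p = 0.44). That rise ended without any 1 of hCG day 10 replicate 1 or 3 or hCG day 18 replicate 1, 2 or 4 (adjusted p = 0.0539 to 0.0921), and with median-centring, a pseudocount of 1, a fit limited to these 8 arrays or the mean over its probe sets (adjusted p = 0.0716 to 0.172). Its 3 other probe sets differed by -0.13 to 0.39 in this contrast, and 0 of them passed. Of the TRAIL death receptors, TNFRSF10A averaged 143 over the 20 arrays and TNFRSF10B, weak in all groups, 39.5, and neither passed a test.

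TNFSF8, the CD30 ligand of activated lymphocytes, had signals of 24.4, 29.5, 28.6 and 28.7 on hCG day 10 and 63.1, 48.6, 46.9 and 47.6 on day 18 (0.62 ± 0.15, adjusted p = 0.016), with no overlap. In the untreated group they were 54.4, 32.0, 27.4 and 36.4, which overlaps day 18. The call was lost without hCG day 18 replicate 1 (adjusted p = 0.0635) and with quantile normalisation or median-centring (adjusted p = 0.0578 to 0.0731). By its group means TNFSF8 was weak in some groups. TNFRSF25, the death receptor DR3, was 206, 272, 295 and 298 on hCG day 10 and 379, 418, 441 and 335 on day 18 (0.53 ± 0.14, adjusted p = 0.035), beside 265, 289.6, 324 and 368 untreated. That difference was lost without any 1 of hCG day 10 replicate 1 or 2 or hCG day 18 replicate 1, 2 or 3 (adjusted p = 0.0642 to 0.115), and with median-centring, a pseudocount of 1 or a fit limited to these 8 arrays (adjusted p = 0.0725 to 0.135). The other TNFRSF25 probe sets differed by 0.56 to 0.90 in this contrast, and 0 of them passed. TNFSF15, the ligand of TNFRSF25, averaged 2.41 over the arrays and was weak throughout.

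TNFSF13B, the B cell survival factor BAFF, varied widely within groups and did not pass. Its mean was 417 ± 251 in the untreated group and 229 ± 71.0, 311 ± 59.1, 382 ± 179 and 620.1 ± 352 on hCG days 10, 12, 15 and 18, with a single day 18 array at 1127, and day 18 differed from hCG day 10 by 1.26 ± 0.41, adjusted p = 0.086. Neither TNFRSF21 (death receptor DR6), which averaged 793 (F adjusted p = 0.75), nor TNFRSF1B (TNF receptor 2) at 268 (F adjusted p = 0.73) passed. TNFSF18, the ligand of GITR, was 2389 ± 141 in the untreated group and 2190.2 ± 338, 2530.2 ± 237, 2904 ± 448 and 2612 ± 336 on hCG days 10, 12, 15 and 18 and did not pass (F adjusted p = 0.38). Its probe sets disagree, as described below.

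IL1RL1, also called ST2, is the receptor chain for interleukin 33 and exists in membrane-bound and soluble forms. It had signals of 225, 196, 63.8 and 82.5 untreated (probe set MmugDNA.3490.1.S1_at), 1181, 206, 382 and 550.5 on hCG day 10, 107, 58.7, 238 and 153 on day 12, 49.5, 91.5, 69.9 and 93.6 on day 15 and 60.7, 43.5, 67.6 and 32.3 on day 18. The hCG day 10 arrays were high, 3 of 4 above every other array in the study, and all 4 lay above all arrays of days 15 and 18. IL1RL1 fell 7.55-fold from hCG day 10 to hCG day 18 (-2.92 ± 0.45, adjusted p = 0.00057), which every alternative kept. Its higher level after 1 day of hCG did not pass against untreated (1.80 ± 0.45, adjusted p = 0.067), although it passed with median-centring. Nor did its lower level on day 12 pass against hCG day 10 (-1.81 ± 0.45, adjusted p = 0.088). Of its 3 other probe sets, 2 fell from hCG day 10 to day 18 and passed (from 92.3 ± 64.1 to 16.9 ± 3.28, and from 99.6 ± 86.6 to 8.66 ± 3.94), and the third, at 14.1 ± 10.4 and 17.6 ± 8.28, did not. IL33 itself was 133 ± 14.3 in the untreated group and 118 ± 78.5, 80.2 ± 30.8, 97.1 ± 59.7 and 89.2 ± 30.9 on hCG days 10, 12, 15 and 18 and did not pass (F adjusted p = 0.69). The co-receptor IL1RAP was 57.0 ± 15.9 untreated and 50.7 ± 26.6 on day 18 (F adjusted p = 0.75).

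**Figure D3:**
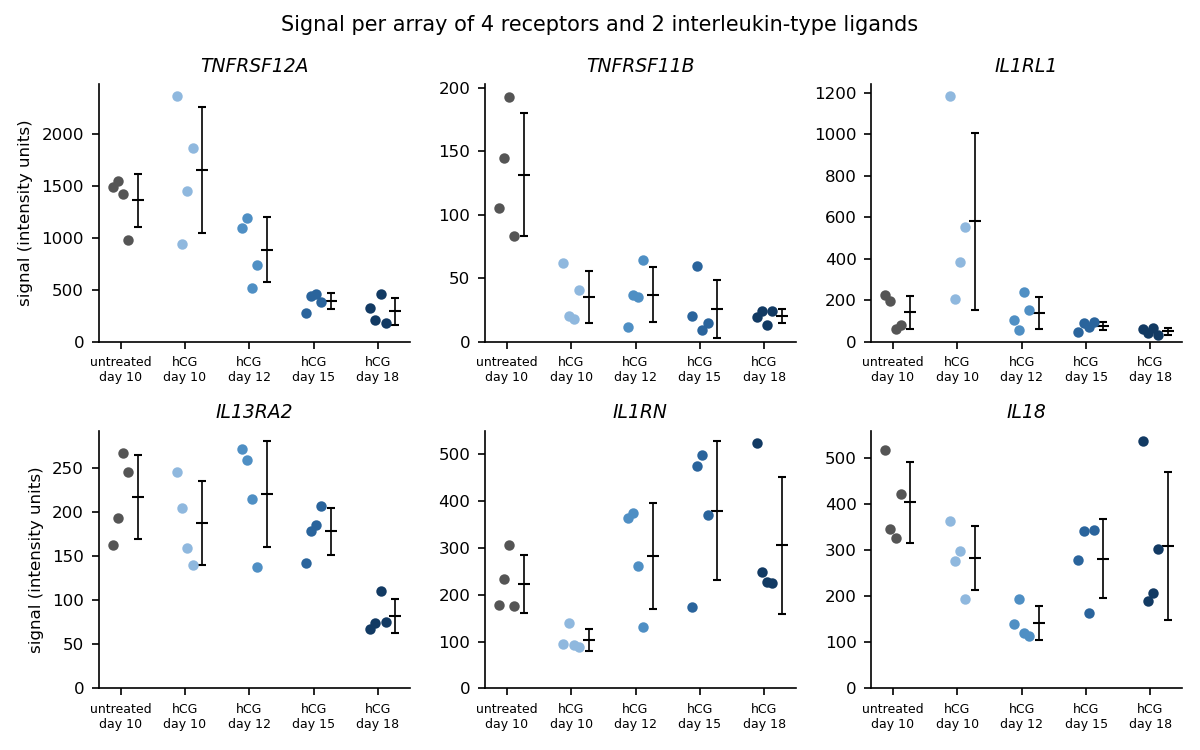
Signal on a linear axis from 0 of TNFRSF12A, TNFRSF11B, IL1RL1, IL13RA2, IL1RN and IL18, 1 point per array, with the mean and SD of the 4 arrays at the right of each group. TNFRSF12A arrays lie at 177 to 462 on days 15 and 18 against 944 to 2363 in the untreated and hCG day 10 groups, and all hCG arrays of TNFRSF11B lie below the untreated ones.

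IL1A and IL1B, the agonist ligands of the interleukin 1 receptor, were weak in all groups. IL1A averaged 13.0 and IL1B 40.5 over the arrays, with F adjusted p values of 0.98 and 0.58. The 2 inhibitors of the system reached 50 in every group by the probe sets used, which cannot be set against those of the ligands as amounts. IL1R2, the decoy receptor, was 1188 ± 335 in the untreated group and 1289 ± 116, 1047 ± 270.1, 1036 ± 404 and 1111 ± 219 on hCG days 10, 12, 15 and 18, with overlapping groups (F adjusted p = 0.83). The means of its 4 probe sets ran from 1134.1, for the 1 used, down to 13.3, so its level rests on the choice of probe set. IL1RN, the receptor antagonist, had signals of 177, 234, 306 and 175 untreated, 94.7, 139, 92.2 and 88.8 on hCG day 10, 364, 374, 260.5 and 131 on day 12, 174, 475, 498 and 370.2 on day 15 and 525, 248, 227 and 224 on day 18. All 4 hCG day 10 arrays lay below the untreated ones and below every day 15 and day 18 array. IL1RN was 2.56-fold higher on day 18 than on hCG day 10 (1.36 ± 0.34, adjusted p = 0.025); hCG day 10 against untreated did not pass (-0.98 ± 0.34, adjusted p = 0.22). The call ended without any 1 of hCG day 10 replicate 1, 3 or 4 or hCG day 18 replicate 1 (adjusted p = 0.0579 to 0.0945). Both other IL1RN probe sets had differences of the same sign (log2 1.41, adjusted p = 0.027 and 1.52, adjusted p = 0.098).

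IL18, which drives interferon gamma release by T and NK cells, was lowest on day 12. Its signals were 517, 346, 326 and 422 untreated, 362, 276, 299 and 194 on hCG day 10, 139, 194, 119 and 114 on day 12, 277, 341, 162 and 344 on day 15 and 536, 190.0, 206 and 301 on day 18. Day 12 lay below all untreated arrays, a 2.67-fold fall (-1.42 ± 0.29, adjusted p = 0.038), and the other hCG days did not pass. That call ended without any 1 of untreated replicate 1, 2, 3 or 4 or hCG day 12 replicate 1, 3 or 4 (adjusted p = 0.0511 to 0.147) and with median-centring, a pseudocount of 1, a fit limited to these 8 arrays or the 3 set-apart arrays left out (adjusted p = 0.0584 to 0.128).

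The interleukin 36 branch (IL36A, IL36B, IL36G, IL36RN and IL1RL2) was weak throughout, so its calls concern signals in the range of the genes of other tissues. IL1RL2, the interleukin 36 receptor, was 22.0, 15.9, 15.4 and 13.1 on hCG day 10 and 1.11, 2.13, 1.08 and 3.66 on day 18 (-0.85 ± 0.15, adjusted p = 0.0014). IL36G was 28.0, 14.4, 21.6 and 35.6 and 5.98, 2.19, 9.98 and 2.22 in the same groups (-0.94 ± 0.18, adjusted p = 0.004). Both differences were kept by every alternative, in which the adjusted p ran over 0.000528 to 0.00761 and 0.000993 to 0.0295. Against untreated, the day 18 call of IL1RL2 (-0.54 ± 0.15, adjusted p = 0.044) ended without any 1 of untreated replicate 1, 2, 3 or 4 or hCG day 18 replicate 1, 2, 3 or 4 (adjusted p = 0.0611 to 0.11) and with quantile normalisation, median-centring, a pseudocount of 64 or the 3 set-apart arrays left out (adjusted p = 0.0508 to 0.0859). IL36A was 10.2, 15.1, 16.7 and 24.4 untreated and 2.85, 3.1, 8.19 and 5.05 on day 18 (-0.64 ± 0.16, adjusted p = 0.025), a call that ended without any 1 of untreated replicate 2, 3 or 4 or hCG day 18 replicate 1, 2 or 4 (adjusted p = 0.0513 to 0.0892) and with a fit limited to these 8 arrays (adjusted p = 0.0629).

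IL13RA2 is a high-affinity receptor for interleukin 13 that lacks a long signalling tail and acts largely as a decoy. Signals were 163, 193, 267 and 246 in the untreated group, 245, 205, 159 and 139 on hCG day 10, 271, 259, 214 and 137 on day 12 and 142, 179, 185 and 206 on day 15. On day 18 they were 67.5, 73.7, 110.4 and 75.0, below all 16 other arrays. The gene fell 2.38-fold against untreated (-1.25 ± 0.21, adjusted p = 0.0017) and 2.06-fold against hCG day 10 (-1.04 ± 0.21, adjusted p = 0.0059), and all alternatives kept both calls. The day 15 and day 18 arrays did not overlap, yet that step did not pass (adjusted p = 0.32). The other interleukin 13 receptor chain, IL13RA1, which signals with IL4R, was 1047 ± 209.6 untreated and 688 ± 26.5 on day 18 and did not pass (-0.57 ± 0.21, adjusted p = 0.15). IL13 was weak, with a mean of 11.3.

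IL2RG, the common gamma chain shared by the receptors of IL2, IL4, IL7, IL9, IL15 and IL21, rose on day 18. Its signals were 97.3, 89.9, 88.2 and 77.8 untreated, 94.4, 95.5, 119 and 83.7 on hCG day 10, 90.9, 105, 101 and 95.0 on day 12, 72.4, 94.6, 145 and 113 on day 15 and 177, 194, 153 and 131 on day 18. Day 18 lay above every array of the untreated, day 10 and day 12 groups and overlapped day 15. The rise against untreated was 1.71-fold (0.78 ± 0.16, adjusted p = 0.0072), kept by all alternatives. Against hCG day 10 it was 1.57-fold (0.65 ± 0.16, adjusted p = 0.019) and ended without any 1 of hCG day 10 replicate 4 or hCG day 18 replicate 1 or 2 (adjusted p = 0.0618 to 0.0624) and with median-centring or a fit limited to these 8 arrays (adjusted p = 0.0513 to 0.0684). The second IL2RG probe set gave 69.8 ± 4.33 and 119.6 ± 43.1 untreated and on day 18 (0.61, adjusted p = 0.097). In bulk tissue, more cells that carry a transcript and more transcript per cell cannot be told apart.

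IL17RD, a receptor-like protein that also dampens growth factor signalling, was weak in all groups. It had signals of 41.1, 31.0, 17.5 and 39.1 untreated and 6.96, 7.85, 2.65 and 15.9 on hCG day 10 (-0.98 ± 0.17, adjusted p = 0.007), a fall that ended with a fit limited to these 8 arrays (adjusted p = 0.109) and held without each array. On day 18, at 14.9, 10.5, 11.4 and 18.9, it was also lower (-0.66 ± 0.17, adjusted p = 0.034), a call that ended without any 1 of untreated replicate 1, 2 or 4 or hCG day 18 replicate 1, 2 or 3 (adjusted p = 0.0613 to 0.112) and with quantile normalisation, median-centring, a pseudocount of 1, a fit limited to these 8 arrays or the 3 set-apart arrays left out (adjusted p = 0.0553 to 0.118). For the interleukin 6 system, IL6 was weak (mean 31.0, F adjusted p = 0.9), while the shared signal transducer IL6ST (gp130) was 1953 ± 384 in the untreated group and 1187 ± 533, 1136 ± 388, 1328 ± 493 and 1441 ± 617 on hCG days 10, 12, 15 and 18 (F adjusted p = 0.52). The receptor IL6R had 329, 210.4, 275 and 229.9 on day 18 against 218, 165, 158 and 167 untreated, a difference that missed the threshold (0.51 ± 0.15, adjusted p = 0.066). This difference passed with quantile normalisation but not with median-centring.

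IL2, the T cell growth factor, read 6398 ± 728 in the untreated group and 7741 ± 922, 9947 ± 2699.9, 10185 ± 1709.7 and 9984 ± 1465 on hCG days 10, 12, 15 and 18. It was higher on day 18 than untreated (0.64 ± 0.18, adjusted p = 0.049), with arrays of 6849, 6424, 5362 and 6958 and 8741, 10404, 8916 and 11875 that did not overlap. The call ended without any 1 of the 8 arrays (adjusted p = 0.0579 to 0.157) and with a pseudocount of 1, the replicate block or the 3 set-apart arrays left out (adjusted p = 0.0546 to 0.0943). Against untreated, IL2 also passed on day 15 with median-centring or quantile normalisation, and on day 12 with quantile normalisation. A second IL2 probe set gave 2784 ± 314 and 6598 ± 921 in these groups and passed (1.24, adjusted p = 0.00083). The third read 1.26 ± 1.31 and 3.51 ± 2.42, so the probe sets annotated to IL2 do not give 1 picture of its level.

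IL21, a product of activated helper T cells, was weak by its group means but passed, with single arrays of up to 49.7. Signals were 44.9, 1.72, 27.1 and 6.00 untreated, 49.7, 43.6, 23.1 and 22.0 on hCG day 10, 6.38, 10.3, 1.51 and 1.35 on day 12, 1.62, 2.29, 2.03 and 1.34 on day 15 and 2.24, 2.2, 2.98 and 2.07 on day 18. All hCG day 10 arrays lay above all arrays of days 12, 15 and 18. The difference between hCG day 18 and hCG day 10 was -1.42 ± 0.29, adjusted p = 0.0053. It was kept by every alternative that held its probe set, which the filter to the brighter 50% left out. IL17F, at 38.3, 59.7, 41.8 and 65.5 untreated and 23.6, 28.1, 33.3 and 25.1 on day 18 (-0.61 ± 0.16, adjusted p = 0.037), lost its call without any 1 of untreated replicate 2 or 4 or hCG day 18 replicate 1, 2 or 4 (adjusted p = 0.0749 to 0.121) and with quantile normalisation, median-centring, a pseudocount of 1, a fit limited to these 8 arrays, a variance trend, the replicate block, the mean over its probe sets or the 3 set-apart arrays left out (adjusted p = 0.0581 to 0.539). The other IL17F probe sets differed by -0.22 and 0.25 on day 18 against untreated, and 0 of them passed. IL10, which restrains macrophages, was 291 ± 105 in the untreated group and 319 ± 225, 429 ± 239.6, 409.5 ± 109 and 316 ± 102 on hCG days 10, 12, 15 and 18 (F adjusted p = 0.83), from 1 of 2 probe sets that disagree.

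Among CC chemokines, CCL25, the ligand of CCR9 known from thymus and gut, was the 1 that passed against untreated. It had signals of 2573, 3301, 3189.6 and 3111 untreated, 3578, 4134, 4538 and 3958 on hCG day 10, 5093, 3960.1, 3997 and 3477 on day 12, 4587, 4946, 4598 and 4593 on day 15 and 3746, 4089.8, 4192 and 4112 on day 18. All 16 hCG arrays lay above the 4 untreated arrays. Day 15 passed at 1.54-fold (0.62 ± 0.12, adjusted p = 0.011). The other days had log2 differences of 0.41, 0.43 and 0.41 (days 10, 12 and 18; adjusted p = 0.13, 0.17 and 0.067). The day 15 call ended without untreated replicate 1 (adjusted p = 0.0521) and with a fit limited to these 8 arrays (adjusted p = 0.0705). Of its 3 other probe sets, 2 had differences of the same sign and 1 of these passed, and the dimmest differed by -0.09.

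CCL8, a monocyte attractant, had signals of 281, 346, 461 and 264 untreated, 724, 571, 695 and 567 on day 12, 419.5, 744, 887 and 828 on day 15 and 591, 956, 569.9 and 345 on day 18. Day 12 lay above all untreated arrays, but none of the 3 days passed (limma, log2 0.91 ± 0.29, adjusted p = 0.26 on day 12, 1.03 ± 0.29, adjusted p = 0.1 on day 15 and 0.78 ± 0.29, adjusted p = 0.17 on day 18; unadjusted p = 0.0056, 0.0022 and 0.015). Its 2 other probe sets differed by -0.73, adjusted p = 0.43, and -0.41, adjusted p = 0.64, on day 12.

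CCL2, which also recruits monocytes, had signals of 261, 224, 132 and 135 untreated and 144, 55.6, 90.6 and 107 on day 18 and did not pass (-0.83 ± 0.36, adjusted p = 0.26). CCL4L1, a near-identical copy of the macrophage chemokine CCL4 whose signal cannot be assigned to 1 copy, was 132, 107, 92.7 and 109 untreated. It was 72.2, 65.0, 58.4 and 83.5 on hCG day 10, 50.7, 61.9, 73.5 and 56.8 on day 12, 135, 99.6, 62.7 and 124 on day 15 and 211, 124, 147 and 93.3 on day 18. Its day 18 arrays lay above all day 10 and day 12 hCG arrays and overlapped the untreated ones (0.86 ± 0.21, adjusted p = 0.02 against hCG day 10). This ended without any 1 of hCG day 10 replicate 2 or 3 or hCG day 18 replicate 1 or 3 (adjusted p = 0.0513 to 0.0767) and with a fit limited to these 8 arrays or the mean over its probe sets (adjusted p = 0.0645 to 0.0681), and its other probe set, weak, differed by 0.13, adjusted p = 0.86.

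CCL5 (RANTES), a chemokine of T cells and monocytes, was 53.2, 42.9, 53.0 and 76.5 on hCG day 10 and 188, 83.2, 99.5 and 91.1 on day 18 (0.82 ± 0.22, adjusted p = 0.033), beside 74.3, 69.5, 70.4 and 62.3 untreated. The call was lost without any 1 of hCG day 10 replicate 1, 2 or 3 or hCG day 18 replicate 1 or 3 (adjusted p = 0.055 to 0.114) and with a pseudocount of 1, a fit limited to these 8 arrays or the replicate block (adjusted p = 0.0529 to 0.105). The other CCL5 probe set had a difference of the same sign (log2 0.87) that did not pass. CCL24, an eosinophil chemokine, was 15.4, 16.6, 30.0 and 42.9 on hCG day 10 and 52.5, 39.7, 81.9 and 79.0 on day 18, groups that overlap (0.92 ± 0.24, adjusted p = 0.028). It lost its call without any 1 of hCG day 10 replicate 1 or 2 or hCG day 18 replicate 3 or 4 (adjusted p = 0.0885 to 0.0943) and with a fit limited to these 8 arrays (adjusted p = 0.086). CCL24 reached a group mean of 50 on day 18 alone. CCR3, the receptor of CCL24, was weak, with a mean of 31.6.

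All 9 CXC chemokines had a higher mean log2 level on day 18 than on hCG day 10, with a median difference of 0.61, and 2 of them passed. Over all 14132 symbols, 6792 were higher, the median was -0.01 and 2.87% passed in that direction. With either other scaling CXCL8 lay on the other side of 0 and 8 of 9 stayed above. CXCL6, a neutrophil attractant, had signals of 381, 268, 283 and 296 untreated, 356, 208, 257 and 182 on hCG day 10, 308, 293, 132 and 238 on day 12, 334, 168, 303 and 214 on day 15 and 631, 421, 413 and 566 on day 18. Day 18 lay above all 16 other arrays, 1.99-fold above hCG day 10 (0.99 ± 0.26, adjusted p = 0.028) and, without passing, above untreated (0.69 ± 0.26, adjusted p = 0.17). That call ended without any 1 of hCG day 10 replicate 2, 3 or 4 or hCG day 18 replicate 1 or 4 (adjusted p = 0.0566 to 0.0945) and with a pseudocount of 1 (adjusted p = 0.0541). The other CXCL6 probe set differed by 0.85 between hCG days 10 and 18 and did not pass. CXCL16, the ligand of CXCR6, was 42.6, 33.1, 33.9 and 25.5 on hCG day 10 and 72.9, 56.0, 67.8 and 44.8 on day 18 (0.61 ± 0.16, adjusted p = 0.032). It lost its call without any 1 of hCG day 10 replicate 2, 3 or 4 or hCG day 18 replicate 1, 2 or 3 (adjusted p = 0.0509 to 0.107) and with quantile normalisation, median-centring, a fit limited to these 8 arrays or a variance trend (adjusted p = 0.0564 to 0.0844). CXCR6 was weak, with a mean of 13.1.

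CXCL10, an interferon-induced ligand of CXCR3, was 27.7, 79.8, 43.5 and 56.2 on hCG day 10 and 268, 70.5, 103 and 95.4 on day 18 and did not pass (1.05 ± 0.38, adjusted p = 0.14). CXCL9, of the same group and singled out after its values were seen, had 311, 18.7, 52.6 and 3.41 on day 18, where 1 array stands far above the rest (1.45 ± 0.58, adjusted p = 0.19). CXCL11, the third CXCR3 ligand, was 562 ± 64.8 in the untreated group and 634 ± 85.8, 694 ± 124, 688 ± 183 and 669.5 ± 115 on hCG days 10, 12, 15 and 18 (F adjusted p = 0.78). CXCL8, the neutrophil attractant interleukin 8, stayed between 21.8 and 102 over the 20 arrays (F adjusted p = 0.61). CXCL12 was 343, 222, 287 and 258 untreated and 685, 598, 406 and 676 on day 18, above all untreated arrays, yet did not pass (1.04 ± 0.40, adjusted p = 0.19). Its receptor CXCR4 was 763 ± 146 in the untreated group and 844 ± 324, 844 ± 175, 706 ± 216 and 802 ± 354 on hCG days 10, 12, 15 and 18, with overlapping groups (F adjusted p = 0.97).

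None of the 11 chemokine receptors passed the limma F test or any contrast, and 2 had an unadjusted F p under 0.05. CCR6, the receptor of CCL20, had the smallest, with signals of 58.3, 79.9, 91.2 and 66.9 on day 15 and 61.6, 46.7, 51.3 and 53.9 untreated (F adjusted p = 0.12). Of the remaining receptors, 7 were weak in all groups, among them CXCR3 and CCR2.

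The 10 genes higher on hCG day 18 than on hCG day 10 were CCL24, CCL4L1, CCL5, CXCL16, CXCL6, IL1RN, IL2RG, TNFRSF25, TNFSF10 and TNFSF8. Their log2 differences ran from 0.46 to 1.36. All 10 were also above untreated, by 0.21 to 0.78, where 1 (IL2RG) passed, and 9 were below untreated on hCG day 10. Because the 10 were picked for high day 18 and low hCG day 10 levels in these same arrays, such directions follow in part from the choice. All 10 calls ended when some single array was left out, whereas the 6 lower calls (TNFRSF12A, IL1RL1, IL13RA2, IL21, IL1RL2 and IL36G) held without each array in turn. In 7 of the 10 genes hCG day 18 replicate 1 was the highest array of its group, and without it 7 of the 16 calls of this contrast remained. Contrasts that hold the day 18 group had 9 calls against untreated and 16 against hCG day 10. Leaving out this array ended 14 of these calls.

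Most macrophage marker genes differed in the same direction as this group of 10. The mean log2 level of 12 measured markers was 8.30 to 8.69 in the hCG day 10 arrays and 9.00 to 9.94 on day 18, with replicate 1 highest, and 7.98 to 9.26 untreated. On day 18, 6 of the 12 were higher than on hCG day 10 (2.87% of all symbols were) and 1 of 12 higher than untreated (2.78%). MARCO and ITGAM were weak, and MARCO went the other way, with mean signals of 13.5 on hCG day 10 and 10.5 on day 18. The 6 measured T and NK cell markers averaged 8.28 to 8.51 on day 18, 7.88 to 8.32 on hCG day 10 and 8.06 to 8.26 untreated. These markers did not move alike. From untreated to day 18, mean signals rose from 595 to 1128 for GZMA and from 7835 to 11649 for GZMB. They fell from 100 to 80.5 for CD8A and from 229 to 178 for ZAP70. CD5 went from 48.7 to 52.8 and NKG7 from 52.8 to 60.5. All 3 measured B cell markers and 5 of 6 neutrophil markers were weak. The sixth, the granulocyte and monocyte gene S100A8, had mean signals of 60.6 untreated, 35.6 on hCG day 10 and 577 on day 18, and was higher on day 18 than on hCG day 10 (log2 2.75 ± 0.74, adjusted p = 0.036). Over 36 two-sided exact permutation tests of 9 marker lists against untreated, the smallest p was 0.0286, the least that 4 against 4 arrays allow, and the smallest adjusted p 0.257. That least p was reached in 4 tests, each with a higher level under hCG. These were luteal cells on day 10, smooth muscle and pericytes on day 12, and T and NK cells and red blood cells on day 18. With this floor, 36 tests could hardly give an adjusted p under 0.05, so they do not decide whether a list changed. Day 18 was not set against hCG day 10 in these tests. The part of the cell types in the chemokine and cytokine results was not tested.

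**Figure D4:**
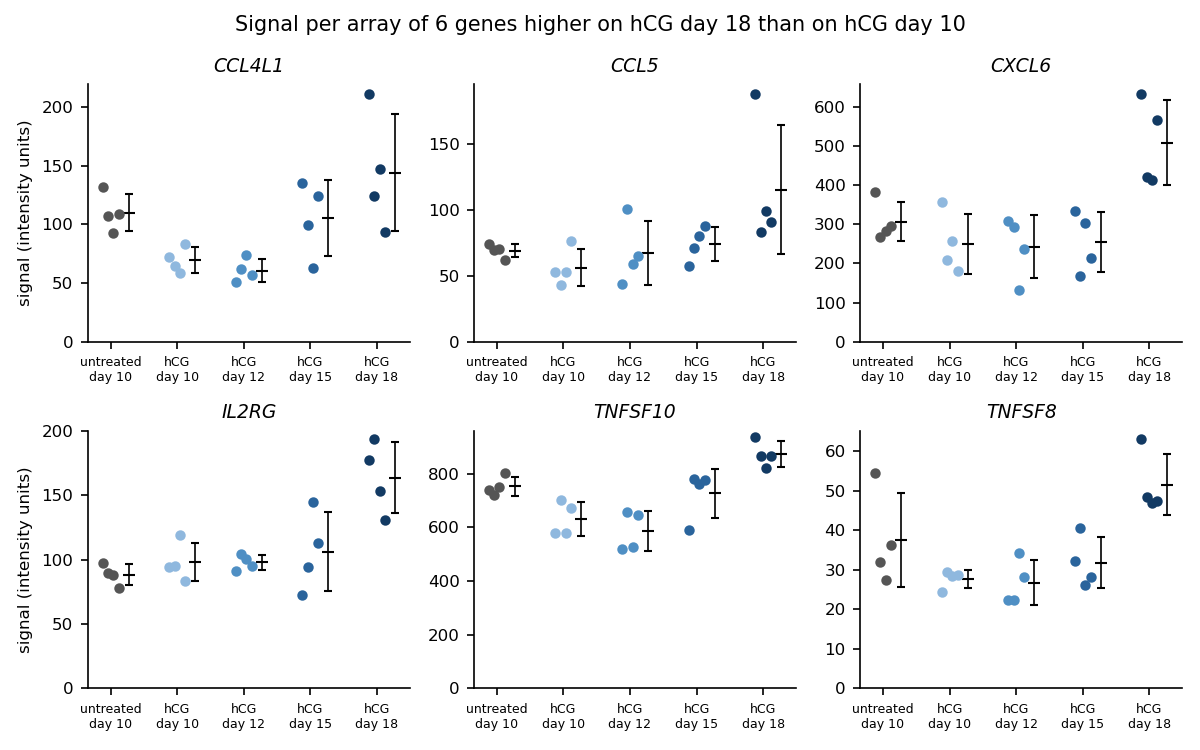
Signal on a linear axis from 0 of CCL4L1, CCL5, CXCL6, IL2RG, TNFSF10 and TNFSF8, 1 point per array with the mean and SD of the 4 arrays at the right of each group. Day 18 is the highest group mean in each panel, and replicate 1, drawn leftmost in its group, is the highest day 18 array in 5 of the 6.

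From one collection day to the next, limma called 0 of the 136 genes in each of 3 steps. Between hCG days 10 and 12 the background was 0.12% higher and 0.601% lower, with 12 of 136 family genes and 1432 of 14132 symbols at an unadjusted p under 0.05. IL21 came closest (-1.26 ± 0.29, adjusted p = 0.054), and 1 gene passed without hCG day 10 replicate 2 and under 6 of the other alternatives, IL21 in the case of centred or quantile-normalised arrays. Between days 12 and 15 the background was 0% and 0%, with 6 family genes and 924 symbols at an unadjusted p under 0.05. Of the 6, CCR6 (0.51 ± 0.14, adjusted p = 0.64) and TNFRSF12A (-1.10 ± 0.31, adjusted p = 0.67) had arrays that did not overlap. Between days 15 and 18 it was again 0% and 0%, with 20 family genes and 1194 symbols at an unadjusted p under 0.05.

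Of 88 other genes of these pathways (such as TNF, colony stimulating factors, receptor adaptors, NF-kappaB and JAK-STAT members and SOCS inhibitors), 71 were measured, 25 of them weak. Over the 5 groups 4 passed (7.01% of all symbols did). On hCG day 10 the oncostatin M receptor gene OSMR was higher than untreated (log2 0.77 ± 0.18, adjusted p = 0.04) and 0 were lower, beside 1.12% and 0.425% of all symbols. On day 18, 4 were higher and 0 lower, beside 2.78% and 3.31%. These were CSF1R, the macrophage growth factor receptor (1.06 ± 0.23, adjusted p = 0.012), STAT6, the transcription factor downstream of interleukins 4 and 13 (0.74 ± 0.15, adjusted p = 0.0076), PTPN6, a leukocyte phosphatase (1.24 ± 0.31, adjusted p = 0.028), and the cytokine gene MIF (0.56 ± 0.15, adjusted p = 0.045). CSF1R and PTPN6 were also higher than on hCG day 10 (1.14 ± 0.23, adjusted p = 0.0058 and 1.33 ± 0.31, adjusted p = 0.015). On days 12 and 15, limma called 0 of the 71 against untreated, with 7 and 15 at an unadjusted p under 0.05.

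For 54 of the 136 genes the array carries several probe sets, and these often give unlike signals. In 14 genes the highest mean was at least 50 and at least 10 times the lowest. The probe set of TNFSF18 used here averaged 2525, and the others 536 and 2.69. For IL10 the means were 353 and 4.57, and for CXCL11 649.5 and 33.3. The 3 IL2 probe sets averaged 8851, 5090.1 and 2.67. Which probe set stands nearer to the transcript's level was not tested, so the strong signals of these cytokines rest on the choice of probe set. In 1 gene, the limit of 50 was reached by a probe set that was not the 1 used, which leaves 65 genes with no probe set at 50 in any group. Signals of TNFRSF12A and IL13RA2 come from 1 probe set each.

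**Figure D5:**
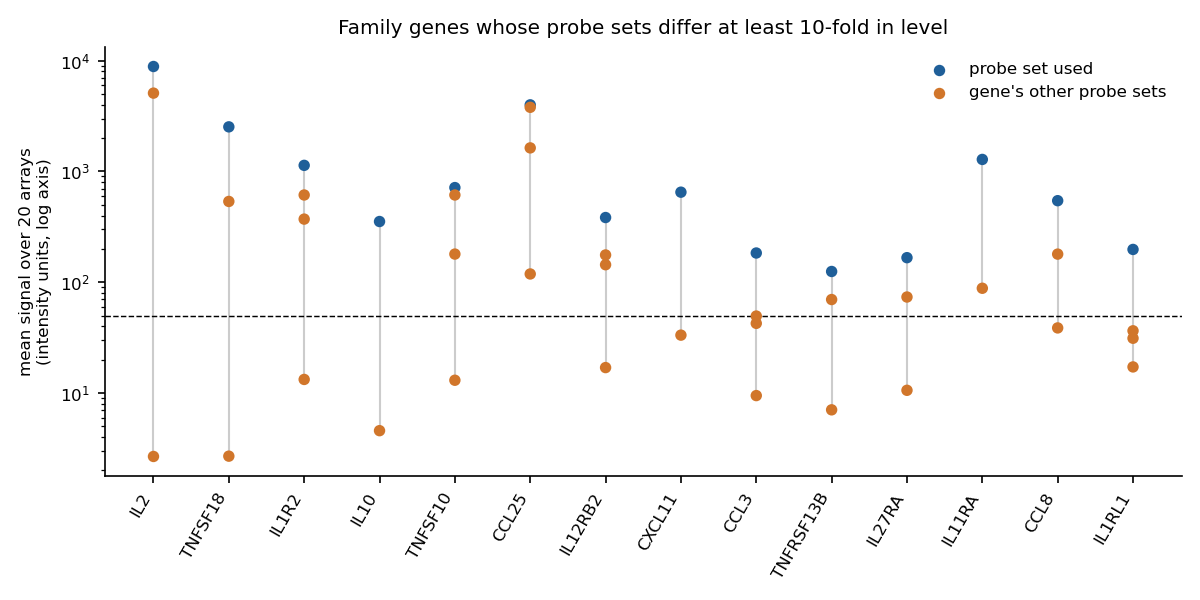
Mean signal over the 20 arrays of every probe set of the 14 family genes whose probe sets differ at least 10-fold and whose strongest reaches 50, on a log axis with a dashed line at 50. Blue points are the probe sets used, and orange points the gene's others; for IL2 and TNFSF18 the lowest averages 2.67 and 2.69, and the one used 8851 and 2525.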

How the data were processed

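Biotin-labelled cRNA of 20 corpora lutea was hybridised to Affymetrix rhesus macaque arrays, 1 per sample. The authors deposited 1 table of linear signal intensity per probe set, made with GCOS per the submitters' processing notes; its version and settings are not given in the sources used here. In each array the mean signal after trimming 2% at both ends was 200.01 to 200.02 intensity units, so the arrays had been scaled to 1 target. From 52865 probe sets 158 array controls were left out. Gene symbols came from the platform annotation, which can be old: 24956 probe sets had 1 symbol, 361 several and 27390 none, and 1 family probe set with several symbols was left out.

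Log2(signal + 16) was fitted with limma 3.58.1 (lmFit, eBayes) in R 4.3.3 over all 20 arrays, with an F test over the 5 groups and 8 contrasts, and p was adjusted by Benjamini-Hochberg over 52707 probe sets. The script was tested on simulated data. Calls were recomputed with other scalings, pseudocounts (1 and 64), filters, fits and with each array left out. Python 3.11.15 was used for the rest. Named were all genes that passed, the gene with the highest mean log2 signal and the smallest F p of each role, 24 genes chosen by function (22 measured; IL1R1 and TNFRSF1A were not analysed here) and those with an outlying array. Ligand and receptor partners of these, and CXCL9 and CCL8, were added after values were seen. The family and all gene lists were chosen with earlier results of these data known. The labels do not tie samples to animals. No sequence is shown.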

Additional observations from a re-analysis of the deposited data

Results flagged for a closer look

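Groups of 4 arrays were checked for 1 array far from the other 3, by the gap to the nearest array divided by the range of the group (Dixon's ratio, at its 95% critical value). Of 210 groups of the named genes, 6 passed. Chance flags about 1 in 20 groups. On hCG day 18, replicate 1 was high for IL1RN (525, the others 224 to 248, ratio 0.883) and for TNFSF8 (63.1, the others 46.9 to 48.6, ratio 0.885). For IL1RN, hCG day 10 replicate 2 was also high (139, the others 88.8 to 94.7, ratio 0.86). CCL25 was high in hCG day 15 replicate 2 (4946, the others 4587 to 4598, ratio 0.967). IL10 was low in untreated replicate 1 (134, the others 335 to 356, ratio 0.935), and TNFSF10 in hCG day 15 replicate 1 (589, the others 761 to 780.4, ratio 0.911).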

How the results depend on the processing

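Of 31 calls of a family gene in a contrast, 11 passed under every alternative run, 18 ended without at least 1 array and 0 reversed. The filter to the brighter 50% of probe sets could be run on 18 of the 31, since it leaves out the dimmer probe sets. Array weights ended 0, a fit of the compared groups alone 15, median-centring 10 and a pseudocount of 1 ended 9. Leaving out the 3 set-apart arrays ended 5. The number of arrays limits what can be called, and 66 genes were weak (42 with a limit of 25). Genes that differed over the 5 groups numbered 15, 7 without the 3 set-apart arrays, and 9 to 16 with 1 array left out. On hCG day 10 against untreated 2 became 1 with quantile normalisation, a pseudocount of 1, the brighter 50% of probe sets or a 2-fold minimum, 0 in a fit of the 2 groups alone, and 1 to 2 with 1 array left out. On day 12, 1 became 2 with quantile normalisation, a pseudocount of 64 or the mean over probe sets, 0 with median-centring, a pseudocount of 1, the 2 groups alone or without the 3 arrays, and 0 to 1 with 1 array left out. On day 15, 3 became 1 in the 2 groups alone and 2 to 5 with 1 array left out. On day 18, 9 became 3 with a 2-fold minimum and 4 to 7 with 1 array left out. The day 18 calls of IL17F, IL17RD, IL1RL2 and IL2 ended without the 3 set-apart arrays. Between hCG days 10 and 12, 0 became 1 with quantile normalisation, median-centring, a variance trend, array weights, adjustment over 1 probe set per gene or the mean over probe sets, and 0 to 1 with 1 array left out. The later steps stayed at 0 throughout. For hCG day 18 against hCG day 10, 16 became 9 in the 2 groups alone, 5 with a 2-fold minimum, and 7 to 16 with 1 array left out (10 without hCG day 10 replicate 2 or 3, 7 without hCG day 18 replicate 1).

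With the replicate number as a block, 15 genes differed over the groups, and 1, 1, 3 and 8 were called on days 10, 12, 15 and 18 against untreated, and 15 on day 18 against hCG day 10; the block ended 4 of the 31 calls. The numbers were not taken to pair the samples, since the labels state no animal or batch for them. Whether same-numbered samples share a batch was not tested. Over 40 pairs of arrays with the same number in different groups, deviations from the group means correlated at -0.28 to 0.36 (median 0.03), with 14 over 0.1, and over 120 pairs with different numbers at a median of -0.02, with 24 over 0.1.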

Other observations

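One probe set annotated to both CXCL3 and CXCL1, neutrophil attractants, was left out of the family because it carries 2 symbols. Its signal was 3.61 ± 0.784 (SD, n = 4) untreated and 3.90 ± 0.925, 3.56 ± 1.1 and 3.17 ± 0.559 on hCG days 10, 12 and 15. On day 18 it was 13.8 ± 5.97. All values are in the range of the weak genes, and the highest array was at 20.9.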
